A study of Mus musculus with 63 samples.

Results

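The comparison described here is the earliest point of a time course of CDK8 deletion in mouse intestinal organoids, 3 days after exposure to 4-hydroxytamoxifen (4-OHT) or its solvent ethanol (EtOH). Its members are 6 RNA-Seq libraries, 3 with EtOH and 3 with 4-OHT, of 63 samples in the whole series and of 24 in the time course, and they were taken by their labelled treatment and day. Both groups are organoids of 1 line, of genotype VillinCreERT2/Cdk8 fl/fl/Cdk19-/- on a C57BL/6 background. They were kept for 24 h with 100 nM 4-OHT or 0.001% EtOH and then given fresh medium. The controls therefore lack CDK19 as well, and what differs between the groups by design is 4-OHT, active Cre and the intended loss of floxed Cdk8. No line without floxed Cdk8 was treated with 4-OHT for 3 days among the libraries used here, so these cannot be told apart. Cre is driven by the Villin promoter, which is active in intestinal epithelium. The labels do not say whether the replicates were separate cultures, and p-values then measure the spread between these samples, which may be technical.

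CDK8 and its paralog CDK19 are alternative kinases of the Mediator kinase module, which also holds cyclin C, MED12 and MED13 and docks on the Mediator complex that links transcription factors and enhancers to RNA polymerase II. Intestinal organoids are epithelial cultures with crypt-like buds, in which Lgr5-expressing stem cells and Paneth cells sit at the base and give rise to absorptive enterocytes and to goblet, tuft and enteroendocrine cells. Enterocytes absorb sugars, lipids and bile acids and carry enzymes that clear foreign compounds, while Paneth cells secrete lysozyme and defensins and supply Wnt3 to the stem cells.

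Totals ran from 18369427 to 19366653 counts per library at day 3 and from 18369427 to 20884794 in the 24 libraries of the time course. The lowest correlation of log2 CPM (counts scaled to library size) between 2 libraries of a group was 0.992 at day 3, and the highest between an EtOH and a 4-OHT library was 0.979. No library was a copy of another, since the replicates differed by more than sampling noise. Mitochondrial transcripts took 3.92% to 5.39% of the counts with EtOH and 5.21% to 5.56% with 4-OHT. The 16 epithelial genes chosen as markers, among them Epcam, Cdh1 and Vil1, were detected, with a summed level of 15800 to 17000 CPM in the EtOH libraries and 12400 to 12800 CPM in the 4-OHT libraries. Of 15 mesenchymal markers, 8 were at 0 in all 6 libraries, Col1a2, Col3a1, Dcn and Lum among them, and the list summed to 14 to 17 CPM with EtOH and 5.32 to 7.69 CPM with 4-OHT. Pdgfrb had 192 to 234 counts per library with EtOH and 41 to 69 with 4-OHT, and Postn 59 to 74 and 48 to 72. Of 15 immune markers, 4 were at 0, including Cd3g and Adgre1, and the list summed to 4.73 to 6.33 CPM and 4.34 to 5.64 CPM. Itgam had 72 to 100 counts per library with EtOH and 62 to 89 with 4-OHT. The 8 endothelial markers summed to 5.59 to 6.69 CPM and 6.26 to 6.54 CPM, with Cdh5 and Emcn at 0. Vwf had 76 to 96 counts per library with EtOH and 88 to 97 with 4-OHT. The part of these sums in the results was not tested.

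Cdk8 (chr5:146231230-146302874 on GRCm38) was counted over the whole gene at 38.6, 39.9 and 39.3 CPM in the EtOH libraries and at 37.1, 34.2 and 39.3 CPM in the 4-OHT libraries. The groups overlapped, with a log2 fold change (log2FC) of -0.09 ± 0.07 (SE) and an adjusted p of 0.345 by edgeR. Counts over the whole gene also hold transcripts that lack a deleted exon, so they do not check the deletion. Cdk19, likewise counted over the whole gene in a Cdk19-/- line, averaged 45.8 ± 1.57 CPM (SD, n = 3) with EtOH and 58.4 ± 1.57 CPM with 4-OHT, a log2FC of 0.35 with an adjusted p of 8.01e-05. None of the 6 tested genes of the kinase module was a differentially expressed gene (DEG), that is, a gene whose fold change exceeded 1.5 and whose adjusted p was below 0.05. Ccnc, which encodes cyclin C, was at 15.0 ± 0.12 and 17.5 ± 0.75 CPM, and Med12, Med13 and Med13l had log2FC values between -0.02 and 0.04. None of 25 tested genes of the core Mediator passed either, against 12.4% of all genes.

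Between the 4-OHT and EtOH libraries 1910 of 15447 tested genes were DEGs, of which 991 (6.42% of all tested genes) were higher and 919 (5.95%) lower with 4-OHT. The rises were the larger in size: 538 of the higher and 383 of the lower genes differed by more than 1 on the log2 scale, and 131 and 63 by more than 2. The median log2FC was 1.08 among the higher and -0.88 among the lower genes, beside -0.02 over all tested genes. The 3 libraries of one group lay wholly above or below those of the other in 7903 genes, 51.2% of those tested, and in 972 of the higher and 906 of the lower DEGs. By the adjusted p alone, without the fold cutoff, 5307 genes (34.4%) differed. In these bulk libraries fewer cells of a type and less RNA per cell cannot be told apart.

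**Figure D1:**
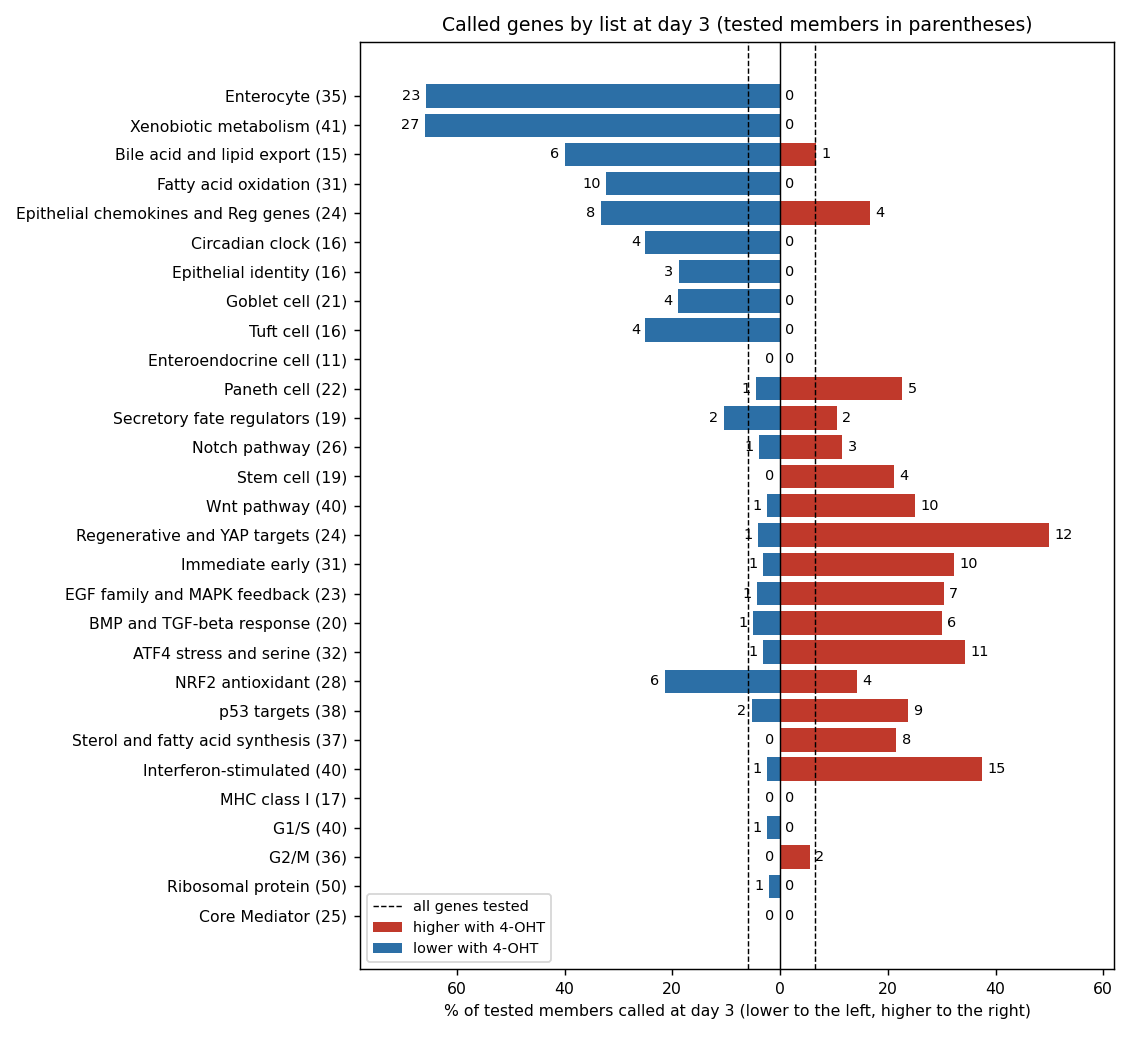
Share of the tested members of 29 gene lists that were DEGs at day 3, in percent on the horizontal axis, with genes lower with 4-OHT to the left in blue, genes higher to the right in red, the number of genes at the bar ends and all tested genes as dashed lines (5.95% lower, 6.42% higher). The enterocyte list, with 23 of 35 genes lower, and the xenobiotic list, with 27 of 41, lie farthest to the left, and the regenerative list, with 12 of 24 genes higher, farthest to the right.

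The stretch of 250 bases before the start site of 5 DEGs, from RefSeq on GRCm38.p6, shows the letters that classic regulators of these gene groups bind. Promoters were matched by symbol for 10485 of 15442 tested symbols, and the 5 genes were chosen because they hold a match. Each is written 5′ to 3′ in the direction of transcription, with the match in capitals. Ces2a (chr8:104733753-104734002, plus strand) holds GATAAG, the core of GATA factor sites, on its minus strand. Cyp2c66 (chr19:39113648-39113897, plus strand) holds CAAAGTCC, part of the HNF4 site. Cyr61 (chr3:145649986-145650235, minus strand) holds CATTCC, the core of TEAD sites, Atf3 (chr1:191183334-191183583, minus strand) holds TGATGNAA, the composite site of ATF4 and C/EBP, on the strand opposite to the one printed, and Oas3 (chr5:120777660-120777909, minus strand) holds GAAA, 2 bases of any kind and GAAA again, the interferon-stimulated response element (ISRE). The first 2 genes fell at day 3 and the other 3 rose.
Ces2a: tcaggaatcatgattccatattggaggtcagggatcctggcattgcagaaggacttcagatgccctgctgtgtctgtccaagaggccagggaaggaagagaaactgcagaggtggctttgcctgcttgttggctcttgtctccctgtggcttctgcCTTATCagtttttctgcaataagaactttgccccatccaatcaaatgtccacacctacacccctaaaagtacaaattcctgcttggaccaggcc
Cyp2c66: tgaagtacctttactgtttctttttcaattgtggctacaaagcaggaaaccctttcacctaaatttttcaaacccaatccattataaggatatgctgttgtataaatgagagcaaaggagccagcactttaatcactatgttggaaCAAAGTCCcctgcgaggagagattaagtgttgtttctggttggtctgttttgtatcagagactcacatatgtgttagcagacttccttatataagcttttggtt
Cyr61: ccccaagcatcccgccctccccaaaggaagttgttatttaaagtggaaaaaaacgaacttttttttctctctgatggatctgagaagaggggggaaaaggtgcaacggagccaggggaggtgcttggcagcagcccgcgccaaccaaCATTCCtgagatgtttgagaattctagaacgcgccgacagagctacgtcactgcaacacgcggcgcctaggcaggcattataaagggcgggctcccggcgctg
Atf3: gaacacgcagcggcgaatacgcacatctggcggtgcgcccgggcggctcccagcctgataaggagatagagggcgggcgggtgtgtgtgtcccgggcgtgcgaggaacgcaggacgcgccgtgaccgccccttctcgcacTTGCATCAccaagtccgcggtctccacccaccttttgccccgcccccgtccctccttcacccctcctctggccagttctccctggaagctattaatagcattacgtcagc
Oas3: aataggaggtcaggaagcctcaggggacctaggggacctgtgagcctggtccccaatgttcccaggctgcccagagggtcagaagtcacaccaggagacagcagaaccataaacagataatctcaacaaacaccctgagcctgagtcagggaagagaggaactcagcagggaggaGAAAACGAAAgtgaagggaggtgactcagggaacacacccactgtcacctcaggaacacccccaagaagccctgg

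The letters were searched on both strands in the same 250 bases of all 27025 genes with a promoter in the table, of the 10485 tested genes among them and of the DEGs. GATAAG was found in 6.6% of all promoters, in 4.69% of those of tested genes, in 7.75% of the 632 matched promoters of lower DEGs and in 6.88% of the 727 of higher DEGs. In the same order, the shares were 1.22%, 1.39%, 3.32% and 0.963% for CAAAGTCC and 12.6%, 10.8%, 12.7% and 11.3% for CATTCC. TGATGNAA was in 3.53%, 1.94%, 1.74% and 3.44%, and the ISRE in 3.04%, 2.49%, 2.85% and 3.3%. TGANTCA, the site of AP-1 factors, was also searched and was in 6.87%, 4.61%, 5.54% and 6.88%. The tested genes are the set from which the DEGs were drawn. These are counts of letters, and no test was made of them.

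Of 35 tested genes of the enterocyte list 23 were lower and none higher, with a median log2FC of -1.20, and 27 of 41 genes of xenobiotic metabolism were lower and none higher, with a median of -0.79. Ces2a, a carboxylesterase that hydrolyses ester drugs and lipids (chr8:104734003-104741634), had the lowest p of all genes. It stood at 1116, 894 and 988 CPM with EtOH and at 184, 204 and 183 CPM with 4-OHT, so that every 4-OHT library lay far below the lowest EtOH library. The fitted change was 5.25-fold (log2FC -2.39 ± 0.09, adjusted p = 3.14e-18).

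Slc2a2, the glucose transporter GLUT2 of the basolateral membrane, stood at 48.6, 38.0 and 42.2 CPM with EtOH and at 7.91, 8.49 and 5.73 CPM with 4-OHT. All 4-OHT libraries lay below all EtOH libraries, and its fall of 5.82-fold had the lowest p of the enterocyte list (adjusted p = 1.10e-14). Apoa1, the main protein of high-density lipoprotein, was at 1349, 1095 and 1193 CPM and at 478, 496 and 367 CPM. The groups were again far apart, and the fall was 2.71-fold (log2FC -1.44 ± 0.10, adjusted p = 7.36e-12). Mme, the brush-border peptidase neprilysin, fell from 75.2 ± 10.2 to 14.8 ± 1.21 CPM, and Cyp3a11, a drug-oxidizing cytochrome P450, from 66.5 ± 6.91 to 17.5 ± 0.61 CPM. The other lower members of the list include the disaccharidases Sis, Lct and Treh, the sodium-glucose cotransporter Slc5a1, the fructose transporter Slc2a5, the fatty-acid-binding proteins Fabp1 and Fabp2 and alkaline phosphatase Alpi. The 12 members that did not pass include the brush-border protein villin (Vil1, log2FC -0.41) and the apolipoprotein Apoa4 (0.27). Vil1, Apoa4 and, in later paragraphs, Ly6a, Axin2, Atf4, Ddit3, Isg15, Cmpk2, Defa20 and Mptx2 were chosen after their values were seen, as were list members named without a value.

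Among the enzymes of xenobiotic metabolism, Gsta1, a glutathione transferase, fell from 84.8 ± 9.19 to 35.8 ± 1.40 CPM, and Ugt1a1, which conjugates bilirubin, from 56.4 ± 7.86 to 18.6 ± 2.32 CPM. Cyp2c66, a cytochrome P450 whose promoter is printed above, was at 261, 208 and 262 CPM and at 96.7, 83.5 and 82.2 CPM (log2FC -1.48 ± 0.09, adjusted p = 2.23e-12). Several of the largest falls of all genes belong to the same families. Adh4, an alcohol and retinol dehydrogenase, went from 28.7, 22.9 and 28.6 CPM to 0.44, 0.52 and 0.96 CPM, the largest fall among well-counted genes (log2FC -5.37 ± 0.45). Ugt2b5 fell from 19.4 ± 2.95 to 1.86 ± 0.38 CPM, Cyp2c38 from 7.07 ± 1.07 to 0.75 ± 0.27 CPM and Cyp2c23 from 4.05 ± 1.29 to 0.53 ± 0.01 CPM. The Cyp2c, Ugt, Reg3, Mptx, Lyz and Oas-like genes are families of close copies, and how reads shared by copies were assigned is not given in the sources used here. G6pc, the catalytic subunit of glucose-6-phosphatase, fell 6.28-fold, and Slc23a1, a vitamin C transporter, 5.76-fold.

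Some genes of fatty acid oxidation and of bile acid and lipid export were lower, while most members of both lists did not pass. Of 31 tested genes of fatty acid oxidation 10 were lower and none higher (median log2FC -0.38), with Acaa2, the last enzyme of the mitochondrial spiral, at 120 ± 8.28 and 62.5 ± 5.34 CPM, Hadh at 751 ± 44.0 and 390.1 ± 15.7 CPM and the acyl-CoA dehydrogenase Acadm at 121 ± 4.91 and 74.3 ± 3.54 CPM. Of 15 genes of bile acid and lipid export 6 were lower and 1 higher. The sterol transporters Abcg5 and Abcg8 work as 1 dimer, and they fell by a log2FC of -1.84 and -1.56. Slc51a, a subunit of the basolateral bile acid exporter, fell from 71.2 ± 5.52 to 31.9 ± 3.20 CPM. Slc10a2, the apical bile acid importer of the ileum, was the exception, with 8.80, 8.66 and 10.2 CPM in the EtOH libraries and 32.9, 29.8 and 30.6 CPM in the 4-OHT libraries (log2FC 1.75 ± 0.15, adjusted p = 8.95e-10). Of 37 genes of sterol and fatty acid synthesis 8 were higher, none was lower and 29 did not pass: Scd1, the stearoyl-CoA desaturase, rose from 532 ± 29.5 to 1283 ± 11.4 CPM, and Hsd17b7 and Tm7sf2 of cholesterol synthesis and Acly, which makes acetyl-CoA for lipids, rose by 0.68 to 0.89 on the log2 scale. Acacb, the acetyl-CoA carboxylase that makes malonyl-CoA at mitochondria and so restrains fatty acid oxidation, had the largest rise of all well-counted genes. It stood at 0.43, 0.48 and 0.80 CPM with EtOH and at 12, 17 and 12.9 CPM with 4-OHT (log2FC 4.60 ± 0.41, adjusted p = 1.64e-08).

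Of the transcription factors of the epithelial identity list, Hnf4g, which drives enterocyte genes, fell 2.55-fold, from 193 ± 13.7 to 75.6 ± 3.44 CPM, and Cdx1, an intestinal homeobox factor, from 325 ± 13.4 to 172.6 ± 6.67 CPM. Lgals4, a galectin of the brush border, was the third lower gene, and the other 13 of the 16 did not pass. Of 16 clock genes 4 were lower. Dbp, a clock output factor, fell from 51.4 ± 4.76 to 22.6 ± 2.55 CPM, while Tef and Per2 lay just past the fold cutoff at log2FC values of -0.59 and -0.61 and lost the call under some alternatives. Antimicrobial Reg genes were among the largest falls. Reg3g, a lectin that kills Gram-positive bacteria, was at 207, 163 and 178 CPM and at 27.1, 31.8 and 26.0 CPM (log2FC -2.69 ± 0.26, adjusted p = 3.40e-07). Reg3b fell from 15.0 ± 1.63 to 0.98 ± 0.84 CPM and Reg1 from 3.63 ± 0.24 to 0.37 ± 0.10 CPM. In the list that holds them, 8 of 24 chemokines, cytokines and Reg genes were lower, Ccl25 and Il18 included, and 4 were higher, among them Cxcl16 with 9.60 ± 0.44 and 25.2 ± 1.00 CPM.

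**Figure D2:**
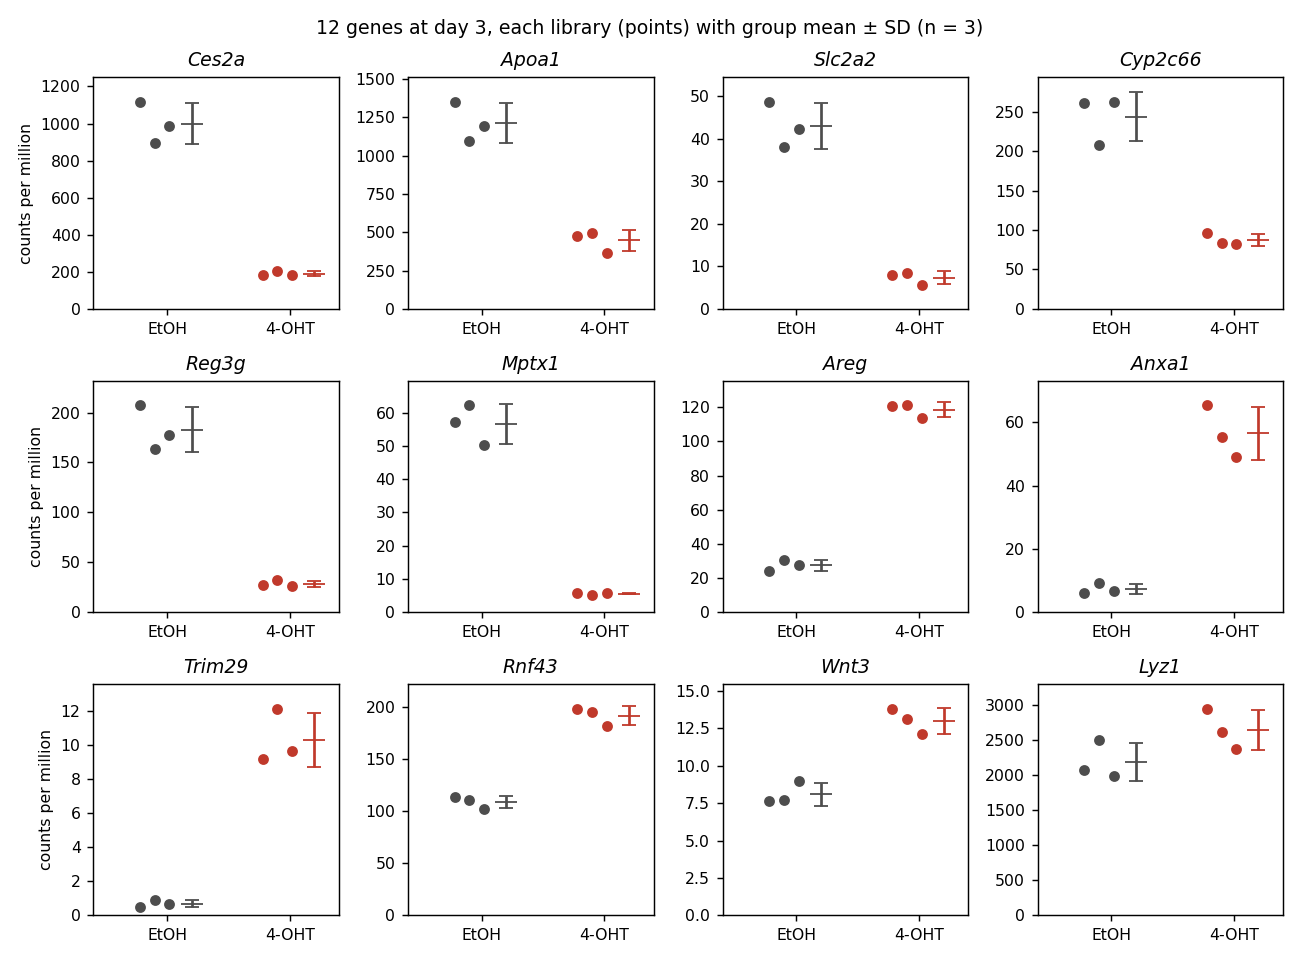
CPM in each of the 6 libraries of day 3 for 12 genes, with EtOH in grey and 4-OHT in red, points for libraries and bars for the mean ± SD of 3. The groups are apart in every panel except Lyz1, where the highest EtOH library (2493 CPM) lies above the lowest 4-OHT library (2376 CPM).

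The rises formed other groups. Many of the tested genes of the regenerative and YAP list, which collects genes induced in the epithelium after injury and targets of the Hippo effector YAP, were higher, 12 of 24 with 1 lower (Clu, a marker of revival stem cells) and a median log2FC of 0.86. Anxa1, an annexin with anti-inflammatory action (chr19:20373428-20390944), stood at 5.99, 9.24 and 6.81 CPM and at 65.3, 55.2 and 48.9 CPM (log2FC 2.94 ± 0.25, adjusted p = 2.73e-08). Ctgf and Cyr61, secreted matricellular proteins and the usual readout of YAP, rose from 0.21 ± 0.06 to 3.70 ± 1.04 CPM and from 7.21 ± 1.08 to 18.2 ± 0.42 CPM. Anxa3 and Anxa5 rose 5.37- and 2.98-fold. Ly6a, the Sca-1 antigen of fetal-like epithelium, averaged 24.3 CPM with EtOH and 71.0 CPM with 4-OHT.

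Some genes of the EGF family and of the immediate early list were higher as well, and 1 of each was lower. Areg, amphiregulin, an EGF receptor ligand (chr5:91139599-91148432), was at 24.2, 30.4 and 27.6 CPM with EtOH and at 121, 121 and 113 CPM with 4-OHT, 4.33-fold higher with an adjusted p of 2.92e-08. The receptor Egfr and the ligand Tgfa rose by a log2FC of 0.70 and 0.66, whereas the partner receptor Erbb2 fell by 0.65 on the log2 scale. In that list 7 of 23 genes were higher and 1 lower. Of 31 immediate early genes 10 were higher, with the AP-1 subunit Fosl1 at 2.46 ± 0.41 and 9.95 ± 1.30 CPM, Ier3 at 21.9 ± 1.79 and 48.6 ± 3.91 CPM and the phosphatase Dusp4 at 50.6 ± 1.35 and 77.2 ± 2.81 CPM, whose call was lost under 1 alternative. Egr1, itself a classic immediate early gene, was the only lower one, at 93.4 ± 3.85 and 37.9 ± 1.95 CPM. Erbb2 and Egr1 lie outside the rule by which genes were named and were chosen after their values were seen.

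Stress and metabolic genes driven by ATF4, the factor of the amino acid and unfolded protein response, were higher in 11 of 32 cases and lower in 1 (Atf5), with a median log2FC of 0.32. Aldh1l2, of mitochondrial folate metabolism, stood at 0.76, 1.01 and 0.80 CPM and at 5.66, 6.77 and 5.78 CPM (log2FC 2.82 ± 0.35). Nupr1, Mthfd1l and Atf3 rose by 0.98, 0.90 and 1.20 on the log2 scale, and Asns, Psat1, Cbs and Slc7a11 were among the other 7. Atf4 itself (log2FC -0.11) and Ddit3 (-0.50) did not pass. The antioxidant genes of NRF2 split, with Hmox1, heme oxygenase, at 7.61 ± 0.34 and 21.03 ± 2.04 CPM and Akr1b8 among 4 higher genes, and Gsta4 among 6 lower ones. Of 38 targets of p53, 9 were higher, with the lowest p for the kinase Plk2 (8.68 ± 0.53 and 27.01 ± 1.17 CPM), Plk3, Tigar and Psrc1, and 2 were lower. Cdkn1a, the cell cycle inhibitor p21, had a log2FC of 0.38 with an adjusted p of 0.00199 and lay under the fold cutoff. It was also chosen after its value was seen. Of 20 genes of the BMP and TGF-beta response 6 were higher and 1 lower, with the inhibitors Pmepa1 and Skil and the receptor Tgfbr1 at 0.60 to 1.20 on the log2 scale. Tgfbr1 lost its call under 1 alternative.

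Interferon-stimulated genes were higher in 15 of 40 cases and lower in 1, with a median log2FC of 0.49. Oasl1 (29.4 ± 2.11 and 149 ± 16.0 CPM), Oas3 (0.78 ± 0.08 and 4.95 ± 0.81 CPM) and the regulator Irf7 (22.0 ± 2.97 and 41.6 ± 7.75 CPM) had the lowest p of the list, though not all had its largest rises. Ifi35 was the lower one. Isg15 averaged 0.23 CPM with EtOH and 0.87 CPM with 4-OHT and Cmpk2 2.03 and 4.16 CPM, so several rises rest on few counts, and with at least 10 counts asked in every library 6 members were called. None of 17 genes of MHC class I antigen presentation was called.

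Outside the lists, the largest rises were of genes that are rare in these cells. Trim29, a TRIM protein of squamous epithelia, stood at 0.49, 0.90 and 0.69 CPM and at 9.18, 12.2 and 9.65 CPM. The nicotinic receptor subunit Chrna4 rose from 1.07 ± 0.22 to 13.6 ± 0.91 CPM and the carbonyl reductase Cbr2 from 1.37 ± 0.45 to 13.7 ± 1.14 CPM. Adam8, a membrane metalloprotease, rose from 2.38 ± 0.81 to 17.7 ± 2.21 CPM. Ppef1, Stc1, Tnip3 and Slc4a11 were each at a mean of 0.12 to 0.44 CPM with EtOH and 2.46 to 3.76 CPM with 4-OHT, so their folds rest on few counts in the controls.

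Of 19 tested stem cell genes 4 were higher, none was lower, and the median log2FC was 0.36. Ascl2, a Wnt-driven factor of stem cell identity, stood at 17.3, 16.8 and 17.03 CPM with EtOH and at 40.1, 32.1 and 28.7 CPM with 4-OHT (log2FC 0.98 ± 0.26, adjusted p = 0.00646). Lgr5, the R-spondin receptor that marks stem cells, was at 223, 252 and 221 CPM and at 273, 291 and 279 CPM; the libraries did not overlap, but the test across all genes gave an adjusted p of 0.104. Olfm4 had a log2FC of 0.40 with an adjusted p of 0.0614 and Msi1, an RNA-binding protein of progenitors, 0.36 with 0.0296, below the fold cutoff. Ephb3, a receptor that keeps Paneth cells at the crypt base, Scn2b and Tnfrsf19 were the other higher genes.

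Of 40 Wnt pathway genes 10 were higher and 1 lower. Rnf43, a Wnt target that removes Frizzled receptors, was at 113, 111 and 102 CPM and at 198, 194 and 181 CPM (log2FC 0.82 ± 0.07, adjusted p = 3.82e-10). The transcription factor Tcf7 rose 2.58-fold, the target Axin2 went from a mean of 170 to one of 260 CPM (a call lost under 1 alternative), and the receptor Fzd2 rose by 0.66 on the log2 scale. Fzd5, the main Frizzled of intestinal epithelium, was the lower one, falling from 268 ± 14.0 to 119 ± 3.46 CPM. Wnt3, the ligand made by Paneth cells (chr11:103774150-103817957), stood at 7.62, 7.70 and 8.99 CPM and at 13.8, 13.1 and 12.1 CPM, with every 4-OHT library above every EtOH library (log2FC 0.68 ± 0.12, adjusted p = 6.02e-05). Tnfrsf12a, the receptor of the cytokine TWEAK, rose 2.20-fold. Few genes of proliferation passed the cutoffs, but most had small positive changes. Of 40 G1/S genes 33 had a positive log2FC (median 0.32), none was higher at the cutoffs and E2f2 was lower. Of 36 G2/M genes 35 were positive (median 0.34) with Gtse1 and Nek2 higher, Nek2 losing its call under 1 alternative. Over all genes 7318 of 15447 were positive. Every 4-OHT library lay above every EtOH library in 24 G1/S and 31 G2/M genes, against 23.8% of all genes. The reverse held in 3 and 0 genes, against 27.4% of all.

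Paneth cell genes had not fallen as a group at day 3. Of 22 tested genes 5 were higher and 1 lower, with a median log2FC of 0.29. Lyz1, lysozyme (chr10:117287797-117292868), was at 2074, 2493 and 1986 CPM and at 2945, 2619 and 2376 CPM, with overlapping groups and an adjusted p of 0.0527. Ang4, an angiogenin with antimicrobial action, had a log2FC of 0.14 (adjusted p = 0.398) and Mmp7, the protease that activates defensins, 0.18 (adjusted p = 0.153). The higher genes were the alpha-defensins Defa29, AY761184 and Defa20, the pentraxin Mptx2 and Nupr1, which the ATF4 list also holds. Defa29 rose from 19.95 ± 3.62 to 60.4 ± 5.45 CPM, but defensins are close copies of each other and their counts may be shared between genes. Without the first 4-OHT library 3 of the 22 were higher, and AY761184, Defa20 and Mptx2 each lost the call under at least 1 alternative. Pla2g2a, which is not in the list and is annotated as a polymorphic pseudogene, rose from 22.5 ± 1.34 to 41.5 ± 7.63 CPM, and Itln1, intelectin, had a log2FC of -0.14. Mptx1 was the one member that fell, from 57.2, 62.2 and 50.2 CPM to 5.76, 5.29 and 5.64 CPM (log2FC -3.34 ± 0.28, adjusted p = 4.86e-08).

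Of 21 goblet cell genes 4 were lower and none higher, with Zg16, a mucus lectin, at 77.8 ± 10.8 and 35.9 ± 5.82 CPM, Capn9 at 5.03 ± 0.73 and 2.13 ± 0.31 CPM and Guca2a, guanylin, at 239 ± 8.94 and 158 ± 17.8 CPM. The call of Guca2a was lost under some alternatives. Muc2, the main gel-forming mucin, ranged from 137 to 222 CPM with EtOH and from 154 to 157 CPM with 4-OHT and did not pass (adjusted p = 0.359). Of 16 tuft cell genes 4 were lower, with a median log2FC of -0.46. Trpm5, the taste cation channel of tuft cells, was at 10.7, 10.1 and 11.3 CPM and at 6.10, 5.96 and 3.73 CPM, and Rgs13 at 2.48 ± 0.59 and 0.80 ± 0.40 CPM, while Pou2f3, the master factor of the lineage, had a log2FC of -0.47 with overlapping libraries (adjusted p = 0.0765). None of 11 tested enteroendocrine genes passed; Pax4 had a log2FC of -0.42 and the hormone gene Sct one of 0.53.

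Among regulators of secretory fate, Atoh1, the basic helix-loop-helix factor required for all secretory cells (chr6:64729125-64731245), stood at 32.9, 32.7 and 32.4 CPM with EtOH and at 36.9, 34.8 and 33.6 CPM with 4-OHT. The 2 groups differed by a log2FC of 0.10 ± 0.07 with an adjusted p of 0.286. Of 19 genes of that list 2 were higher and 2 lower (median log2FC -0.15). Foxa1 and Foxa2, forkhead factors of goblet and enteroendocrine differentiation, were higher (log2FC 0.94 and 0.59, the call of Foxa2 being lost under some alternatives), and Bhlha15, the secretory factor MIST1, fell from 36.0 ± 0.51 to 18.6 ± 1.31 CPM. Dll1, the Notch ligand of secretory progenitors, fell by 0.63 on the log2 scale, and the receptors Notch2 and Notch3 rose by 0.84 and 1.51. Of 26 tested genes of the Notch pathway 3 were higher and 1 lower, with 13 positive and 13 negative values (median log2FC -0.04). Hes1, the repressor induced by Notch, went from 116 ± 4.88 to 142 ± 5.61 CPM, past the adjusted p (3.28e-04) but not the fold. The stem and progenitor genes Myb and Hopx had log2FC values of 0.00 and 0.02.

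Some lists held few or no DEGs. None of 41 genes of the nuclear respiratory chain, 13 mitochondrially encoded genes or 13 genes of LSD1 and CoREST was a DEG by edgeR, and 1 of 24 SWI/SNF genes (Dpf3) was lower. At an unadjusted p below 0.05 and with no fold cutoff, the 3 lists held 31, 2 and 3 genes, the enteroendocrine list 2, MHC class I 8, the core Mediator 6 and the kinase module 2. Over all genes 6626 of 15447 (42.9%) had such a p, a share that the respiratory chain (75.6%) and MHC class I (47.1%) exceeded and the other 5 lists did not reach. In the respiratory chain 28 genes passed the adjusted p with changes under 1.5-fold, 38 of the 41 being lower on average (median log2FC -0.24). Of 50 ribosomal protein genes 1 was lower, although 47 had a negative log2FC (median -0.38). Over all genes 8128 of 15447 were negative. Of 39 ER folding genes 1 was higher and 2 lower, of 19 heat shock genes 1 was higher, of 33 genes of glycolysis and hypoxia 2 were higher and 3 lower, and of 16 core histone genes 3 were higher and 2 lower.

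Day 3 was then set against days 5, 7 and 10 of the same line, each day with 3 EtOH and 3 4-OHT libraries of its own. Of the 991 genes higher at day 3, 219 were also higher at day 5 (22.1% of them and 16.5% of the 1326 genes, 8.58% of all, higher at day 5), 243 at day 7 and 142 at day 10. Of the same 991 genes 70, 159 and 148 were lower at days 5, 7 and 10. Over all genes 9.00% were higher at day 7 and 8.86% at day 10, and 9.25% and 6.92% were lower. Of the 919 lower genes, 103 were also lower at day 5 (11.2%, and 14.4% of the 714 genes, 4.62% of all, lower at day 5), 87 at day 7 and 68 at day 10. Of the same 919 genes 105, 190 and 271 were higher at days 5, 7 and 10. Only 74 genes were higher and 32 lower on all 4 days. Slc2a2, Adh4, Egr1, Mptx1, Trpm5, Rgs13 and Bhlha15 were among those lower throughout, and Chrna4, Ppef1, Trim29, Tm7sf2, Oas3, Oasl1 and Irf7 among those higher. The interaction test of the day 3 response minus the mean of the 3 later responses, at the same cutoffs, placed 1740 genes (11.3%) above and 1827 (11.8%) below. The share of mitochondrial transcripts also differed between days. It was 2.51% to 2.8% with EtOH and 4.59% to 5.57% with 4-OHT at day 5, 3.09% to 3.58% and 2.82% to 3.7% at day 7, and 1.5% to 1.6% and 1.63% to 1.96% at day 10. Of the 13 mitochondrially encoded genes 12 were higher at day 5 (median log2FC 1.06) and 7 lay below in the interaction test, and their part in the other differences was not tested.

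**Figure D3:**
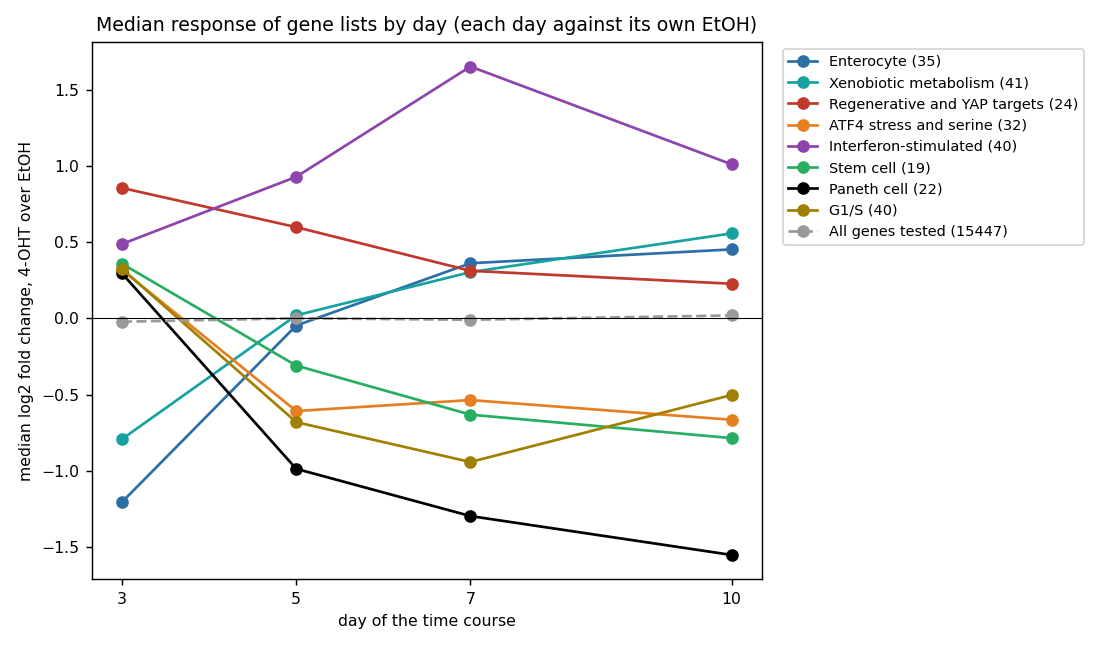
Median log2 fold change of 4-OHT over EtOH (vertical axis) of the tested members of 8 gene lists and of all tested genes (dashed) on days 3, 5, 7 and 10 (horizontal axis), each day against its own EtOH libraries. The enterocyte median goes from -1.20 to 0.45 and the Paneth median from 0.29 to -1.55, so the order of the lists at day 10 is unlike that at day 3.

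The enterocyte list had median log2FC values of -1.20, -0.05, 0.36 and 0.45 on days 3, 5, 7 and 10, and 29 of its 35 genes lay below in the interaction test. For xenobiotic metabolism the medians were -0.79, 0.02, 0.30 and 0.56 with 32 of 41 genes below. Ces2a averaged 190.4 CPM with 4-OHT at day 3 and 883, 1039 and 1057 CPM on the later days, against 834 to 1140 CPM in the 4 EtOH groups. Plbd1, a lysosomal phospholipase, moved from below its control at day 3 (log2FC -1.04) to above it on each later day (0.92, 1.58 and 1.48). Cyp2c68, Ugt2a3, Akr1c19 and Fmo5, all enzymes of oxidation, reduction or conjugation, had log2FC values of -1.22 to -1.91 at day 3 and of 0.21 to 1.40 on the later days. Slc2a2 stayed lower, with log2FC values of -2.54, -2.53, -1.03 and -1.43.

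Paneth and stem cell genes went the opposite way. The Paneth list had medians of 0.29, -0.99, -1.30 and -1.55 with 20 of 22 genes above in the interaction test, and the stem cell list medians of 0.36, -0.31, -0.63 and -0.78 with 14 of 19 above. The other secretory lists differed from this: the tuft list was below 0 from day 3 on (-0.46, -1.15, -1.58 and -1.56, 8 of 16 above and 1 below), the goblet list as well (-0.19, -0.36, -0.49 and -0.56), with 3 of 21 genes above and 2, Zg16 and Capn9, below, and 2 of 11 enteroendocrine genes lay above. Lyz1 had log2FC values of 0.28, -1.01, -1.63 and -1.83, Atoh1 of 0.10, -0.78, -0.92 and -1.16, and Wnt3 of 0.68, -1.08, -1.58 and -1.45. All were level or higher first and lower from day 5 on. The EtOH levels also moved between days: Lyz1 averaged 2184 ± 271 CPM at day 3 and 5809 ± 92.0 CPM at day 10 with EtOH, and 2647 ± 286 and 1632 ± 137 CPM with 4-OHT. Lgr5 (0.28, then -0.66, -0.73 and -1.38) and Ascl2 (0.98, then -1.24, -1.72 and -1.40) followed the same course. The G1/S median went from 0.32 to -0.68 at day 5 and the ATF4 median from 0.32 to -0.61, with Aldh1l2 at 2.82, -1.81, -2.17 and -3.78. The regenerative list kept a positive median on every day (0.86, 0.60, 0.31 and 0.23), but its calls became mixed. Of its 24 genes 12, 13, 4 and 5 were higher and 1, 1, 2 and 5 lower. Areg was above its control only at day 3 (2.11, then -1.06, -0.30 and -0.67). Interferon-stimulated genes had medians of 0.49, 0.93, 1.65 and 1.01 and 15, 28, 31 and 26 of 40 genes higher. In the interaction test 18 of them lay below and 2 above.

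**Figure D4:**
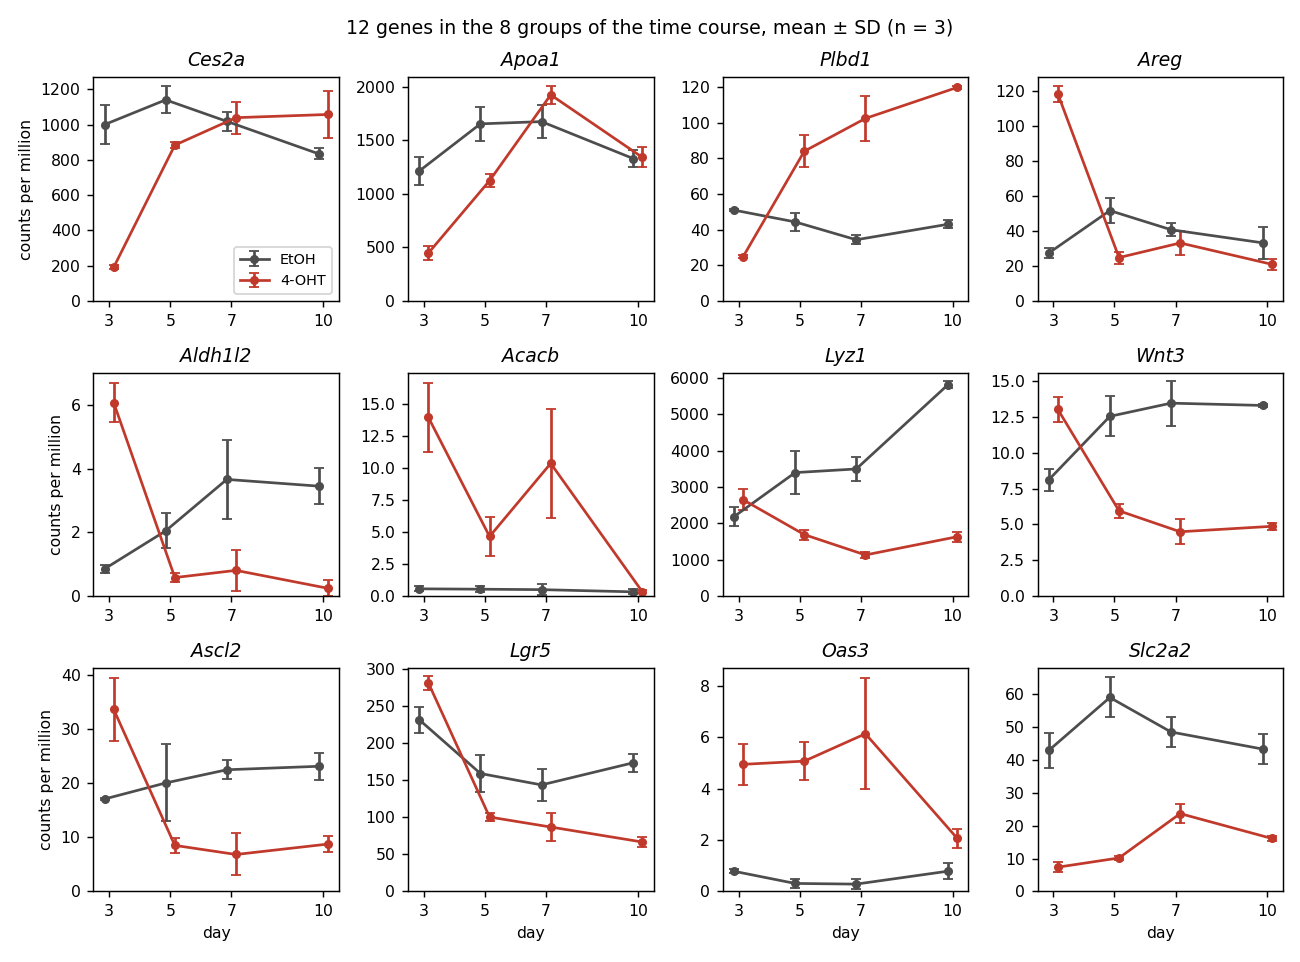
Mean CPM ± SD (n = 3) of 12 genes in the EtOH (grey) and 4-OHT (red) groups on days 3, 5, 7 and 10. The 4-OHT lines of Ces2a, Apoa1 and Plbd1 start below EtOH and end at or above it, those of Lyz1, Wnt3, Ascl2 and Lgr5 start above EtOH and end below it, and Slc2a2 stays below and Oas3 above on all 4 days.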

How the data were processed

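The 24 libraries of the time course (EtOH or 4-OHT, days 3, 5, 7 and 10, 3 of each) were analysed, and the other tables of the series were not used here. The authors deposited unnormalized read counts for 54752 genes. The submitters' processing notes name STAR 2.5.2, featureCounts, Subread 1.6.3 and mm10, and the strandedness is not given in the sources used here.

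Genes were filtered with filterByExpr (15447 kept), scaled with TMM and tested in edgeR 4.0.16 (R 4.3.3) with the robust quasi-likelihood F test on the 8 groups together, which leaves 16 residual degrees of freedom. DEGs had a fold change above 1.5 and, after Benjamini-Hochberg adjustment, p below 0.05. An adjusted p is edgeR's unless another tool is named. CPM use TMM-scaled library sizes, and the SE was derived from the log2 fold change and F. The interaction contrast subtracted the mean of the later responses. Lists are described by counts and medians, without a set test. The libraries and lists were chosen with earlier results of these data known. Named genes were the kinase module, the 12 strongest rises and 12 strongest falls among DEGs with at least 50 counts on average in the higher group and no overlap between groups (clone and model names left out), genes that the study's text names, the 4 DEGs of lowest p in each list (2 genes where a list had none) and the 6 of lowest p on either side of the interaction. Some genes inside this rule are not named in the text, Rnf212 of the falls, Dclk1 of the study's genes and Rep15 of the goblet list among them. Other exceptions are stated where they occur. The test was tested on simulated data. Alternatives were DESeq2 1.42.0, limma-voom (limma 3.58.1), other filters and size factors, a replicate block and leaving out single libraries. Positions are from GENCODE vM21 on GRCm38. At this depth a gene at or below 1 CPM rests on few counts.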

Additional observations from a re-analysis of the deposited data

Results flagged for a closer look

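The response at day 3 differed from the mean response of days 5, 7 and 10 in 1740 genes above (11.3% of those tested) and 1827 below (11.8%), by the edgeR test of the difference itself. Of 144 named genes 115 passed, and many of these were named for low p values in the same libraries. The values here are log2 differences (day 3 minus later) of 40 of the 144, chosen with their values known. Itln1, Pla2g2a, Fgfrl1, Hmox1, Tnfrsf12a, Rnf43, Cyp2c68, Ugt2a3, Akr1c19, Ces2a, Plbd1 and Fmo5 were named for their low p in this same test, so that their passing it is a description and no finding.

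Among Paneth cell genes the differences were 1.77 for Lyz1, 1.53 for Ang4, 1.13 for Mmp7, 1.64 for Itln1, 2.11 for Defa29 and 2.43 for AY761184, and Pla2g2a, outside the Paneth list, differed by 3.49. For regulators of fate they were 1.05 for Atoh1, 1.38 for Pou2f3, 0.88 for Myb and 1.01 for Hopx. Stem cell and Wnt genes differed by 1.20 (Lgr5), 1.60 (Olfm4), 2.43 (Ascl2), 1.31 (Msi1), 2.05 (Wnt3) and 1.30 (Rnf43). Growth factor, stress and regenerative genes differed by 2.79 (Areg), 2.42 (Fosl1), 2.11 (Anxa1), 1.44 (Tnfrsf12a), 1.40 (Fgfrl1, a receptor of the FGF family), 2.57 (Hmox1) and 5.41 (Aldh1l2). The lipid enzyme Acacb differed by 2.12, but it was also higher at days 5 and 7. Its log2FC values were 4.60, 3.08, 4.35 and -0.0006 on days 3, 5, 7 and 10.

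The 9 genes below, most of them of absorption and xenobiotic metabolism, differed by -2.39 for Ces2a, -2.59 for Cyp2c68, -2.64 for Ugt2a3, -2.02 for Akr1c19, -2.36 for Plbd1, -1.72 for Fmo5, -0.87 for Slc2a2, -1.32 for Apoa1 and -3.77 for Reg3g. Of the 40, those that did not pass were Hes1 (-0.09), Muc2 (-0.12), Mptx1 (-0.46), Oas3 (-0.62), Irf7 (-0.50) and Chrna4 (0.43). Outside the 40, Ppef1 (1.26), Tm7sf2 (0.09) and Rgs13 (1.01), which were DEGs on all 4 days, did not pass either. Groups of 3 were not tested for single outlying libraries.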

How the results depend on the processing

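Without the fold cutoff, the adjusted p alone called 2397 genes higher and 2910 lower at day 3, 3516 above and 3812 below in the interaction, 536 members of the lists in place of 226, 13 stem cell genes and 8 Paneth genes higher. With at least 10 counts in every library, 6 interferon-stimulated genes were higher in place of 15, since fewer of them are tested. Apart from leaving out 1 library, no other setting moved these counts by over 1.5 times; DESeq2 called 930 higher and 853 lower and limma-voom 989 and 909. Leaving out 1 library gave 878 to 1014 higher and 794 to 928 lower genes, 1637 to 1938 above and 1626 to 1876 below, and 211 to 228 list members. The leading lists then held 23 to 24 enterocyte, 24 to 28 xenobiotic, 10 to 12 regenerative, 10 to 11 ATF4, 12 to 15 interferon, 8 to 10 Wnt, 4 to 4 stem cell and 3 to 7 Paneth genes, the 3, in place of 5, without the first 4-OHT library. Of 117 named DEGs, 11 lost the call under an alternative in which they were tested (Axin2, Tef, Per2, Guca2a, Foxa2, Tgfbr1, Dusp4, Nek2, AY761184, Defa20 and Mptx2), and none changed sign. Named genes below 10 counts in any library were not tested under that filter, so they could not lose the call there. Acacb, Adh4, Trim29, Ctgf, Ppef1 and Stc1 were among them.

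Genes near 0 changed sign without passing. Med12 was at 0.00249 with at least 10 counts in every library, 0.0192 with upper quartile factors and 0.0107 in the 6 day 3 libraries alone, and Myb at 0.0171, 0.0337 and 0.0243. Leaving out 1 library gave -0.104 to 0.0802 for Med12, -0.0562 to 0.0342 for Myb, -0.01999 to 0.0804 for Hopx, -0.0152 to 0.0385 for Med13l and -0.286 to 0.043 for the difference of Muc2. Against day 5 alone the difference of Hes1 was 0.0638 and that of Chrna4 -0.39. Against day 5 or day 10 alone 1392 and 1920 genes lay above.

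Same-numbered libraries did not deviate together at day 3 (correlations of -0.02, 0.00 and 0.01), and on the other days they gave -0.06 to 0.23, with no day on which all 3 pairs passed 0.1, so the numbers were not taken to pair the samples. The numbers are those of the sample titles, which the data columns do not share for every library, the third EtOH library of day 3 among them. With a replicate block 1001 genes were higher and 915 lower, and 1745 above and 1836 below. Depth and 3 libraries per group limit what can be said of genes under 1 CPM.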
